A study of Mus musculus with 8 samples.

Results

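Activated mouse B cells in their first cell cycle were compared here, with 3 h and 33 h after lipopolysaccharide (LPS) as the ends. LPS is a bacterial product that activates B cells through Toll-like receptor signalling. The members were 4 of the 8 in situ Hi-C libraries of the series, taken by their labels. They were 2 libraries of 3 h and 2 of 33 h without a pre-S label, the stage that the paper calls imminent division. The 2 libraries of 10 h were read beside them, to see where this time lay between both ends. By the clock 10 h is itself nearer to 3 h than to 33 h, so a value nearer to 3 h need not mean a late change. All 3 groups were splenic B cells of strain C57BL/6 by the labels, which the methods describe as taken from males of 6 to 12 weeks on a C57BL/6 Pep3b background, isolated by negative selection, labelled with CellTrace Violet (a dye that is diluted at each division), cultured with LPS and sorted as undivided cells that carried the activation marker CD69 and lacked the T cell receptor. No cell cycle gate was described for them, so a 33 h library is a mixture of undivided cells whose cycle phases were not separated. The remaining 2 libraries, a pre-S sort at 33 h from FUCCI reporter mice, were compared with nothing here, but shared the filter on bin pairs, the offsets and the estimate of the spread. Replicates were biological duplicates, without a statement of how many animals went into each.

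In situ Hi-C records contacts inside chromosomes: crosslinked chromatin is cut (here with MboI), nearby ends are joined, and each sequenced read pair counts as 1 contact between 2 places. Mammalian chromosomes fold on several scales. Active and gene-rich chromatin meets other active chromatin (the A compartment) and silent chromatin meets silent chromatin (the B compartment), and within both, topologically associating domains (TADs) are stretches whose parts meet each other more often than they meet the outside. Resting B cells that receive LPS leave quiescence, grow, copy their DNA and then divide, and chromosomes are known to condense and to lose domains as cells enter mitosis.

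The 3 h libraries held 88703088 and 170436624 read pairs, those of 10 h 116957398 and 153258311, and those of 33 h 180325399 and 218945191, so the comparison was shallower at its 3 h end. The second 33 h library stood apart on the sex chromosomes, which no comparison below used: 3.74% of its read ends lay on X against 2.39% to 2.84% in the other 7 libraries, and 0.0490% lay on Y against 0.0804% to 0.123%. Counts of changed bin pairs, compartment bins, boundary regions and promoter bins without that library are given beside the counts with it. No RNA was measured in these libraries, so cell identity could be read only from the compartment of marker loci. All 24 B cell identity genes (among them Pax5 and Ebf1) lay in A, but so did 14 of 16 T and NK cell markers and 13 of 13 myeloid and erythroid markers, beside 15996 of 20807 autosomal protein-coding genes, so this reading cannot tell the cell types apart.

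The share of contacts over long distances was lower at 33 h than at 3 h. Of same-chromosome read pairs, 53.6% and 53.5% joined places more than 1.5 Mb apart at 3 h, 52.1% and 53.3% at 10 h, and 47.3% in both libraries at 33 h. Both 33 h libraries lay below every earlier library, and the mean moved by -6.22 percentage points between 3 h and 33 h (53.5% ± 0.12 against 47.3% ± 0.024, SD, n = 2). Without the second 33 h library the change was -6.24 points. With 2 libraries against 2, the two-sided exact permutation test cannot give a p below 0.333, which is the p here. On each of the 19 autosomes both 33 h libraries were below both 3 h libraries, with changes from -5.14 to -7.76 points. Both 10 h libraries lay between the ends on 13 of these chromosomes and were mixed on the other 6.

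Shares were higher at intermediate distances and lower at both extremes. The largest gain was among contacts 100 to 250 kb apart, whose share was 10.7% and 10.8% at 3 h, 11.3% and 11.1% at 10 h, and 14.1% in both 33 h libraries. The largest loss was among contacts 20 Mb and more apart, at 29.1% in both 3 h libraries, 27.9% and 28.7% at 10 h, and 23.6% and 24.1% at 33 h. Contacts within 1 bin made up 12.7% and 12.9%, then 12.3% and 11.6%, then 9.98% and 10.1%, the next largest loss (-2.74 points), with both 10 h libraries between the ends. Classes from 100 kb up to 3 Mb were higher and those from 5 Mb lower at 33 h, without overlap between the ends, while the class between 3 and 5 Mb overlapped. The class of adjacent bins was also higher at 33 h without overlap (9.57% and 9.72% against 9.11% and 9.22% at 3 h), but at 10 h it was 9.37% and 9.04%, not between the ends in both. In each of the other non-overlapping classes both 10 h libraries lay between 3 h and 33 h. The 10 h mean was nearer to 3 h in each of these, at 0.140 to 0.456 of the way from the 3 h mean to the 33 h mean. The share of autosomal read pairs that joined places on the same chromosome did not have 10 h between the ends either, at 74.0% ± 1.07 at 3 h, 74.8% ± 0.357 at 10 h and 71.1% ± 0.239 at 33 h (SD, n = 2). On log scales, contact counts declined with distance between 500 kb and 7 Mb at a slope of -0.920 and -0.916 at 3 h, -0.969 and -0.972 at 10 h, and -1.105 and -1.108 at 33 h. The decay was steeper at each later time over this range, and 10 h stood 0.283 of the way along. Between 100 kb and 1 Mb the slope hardly differed, by 0.0144 in the opposite direction.

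**Figure D1:**
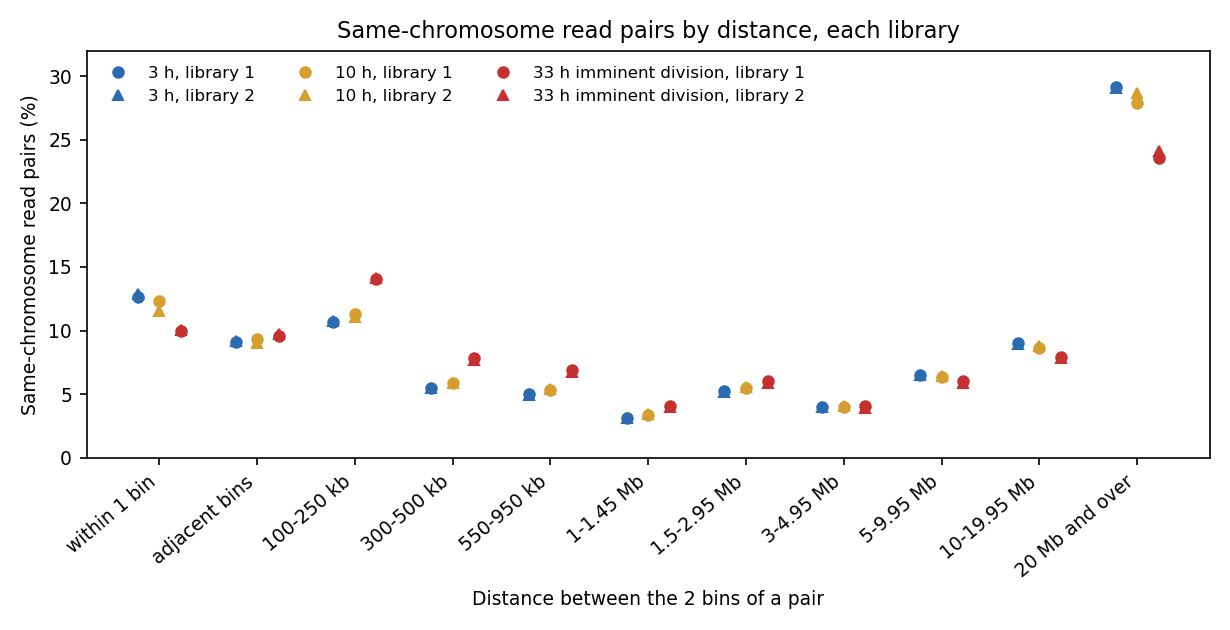
Share of same-chromosome read pairs (%) by the distance between their 2 bins, for each library of 3 h, 10 h and 33 h imminent division (circle, library 1; triangle, library 2). The 33 h libraries sit highest at 100-250 kb, at 14.1%, and lowest at 20 Mb and over, at 23.6% and 24.1%.

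Which single contacts changed was asked of bin pairs, that is, pairs of 50 kb bins on the same autosome. Of 1458343 bin pairs tested with edgeR, 8679 were stronger at 33 h than at 3 h (0.595% of those tested) and 14641 were weaker (1.00% of those tested) at a false discovery rate of 5%, called differential interactions (DIs) here. Changes are relative to the offsets, under which the median log2 change over all tested pairs was 0.01. The median DI changed 2.17-fold in either direction. The number of DIs rested on all 4 libraries: it was 8448 without the first 3 h library, 5768 without the second, 8136 without the first 33 h library and 10403 without the second. The split between stronger and weaker also depended on the settings, and it moved when single libraries were left out. Weaker pairs made up 62.8% of the DIs here, 69.1% with TMM factors, 54.7% with bin coverage added to the offsets and 56.8% with offsets per distance class. They made up 99.8% of 27679 with the DESeq2 Wald test, which changes the test and the scaling at once and called 8.89% of these DIs again.

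Strengthened and weakened contacts differed in where they lay. Strengthened DIs were short, with a median span of 300 kb against 850 kb for all tested pairs, and weakened DIs had a median span of 800 kb. That order turned with TMM factors (400 kb stronger, 250 kb weaker) and with DESeq2 (150 kb and 50 kb), and in 100 kb bins, where both were long (1700 kb and 1400 kb), and the spans were 400 kb and 500 kb with offsets per distance class. Both anchors lay in A in 82.2% of weakened DIs, against 40.8% of tested pairs at the same distances, and both lay in B in 8.73% against 43.2%. Strengthened DIs had 49.2% within A (40.9% of tested pairs at their distances), 31.0% within B (44.5%) and 19.8% between A and B (14.4%). This too turned with TMM factors, to 29.6% within A and 47.4% within B, and the shares were 41.3% and 41.0% without the second 33 h library, while weakened DIs lay mostly within A under each setting run at 50 kb (65.1% to 87.1%). At least 1 anchor held the start of a protein-coding gene in 62.1% of weakened and 53.1% of strengthened DIs, against 44.5% of tested pairs. These are descriptions: bin pairs that share an anchor, or neighbour each other, are not independent.

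The share called by distance depended on how the offsets were fitted. At 100 kb apart, 2.23% of pairs were stronger and 0.694% weaker, and between 1 and 1.5 Mb 0.129% were stronger and 1.58% weaker. From 1.5 Mb, where a separate offset fit begins, up to 2 Mb the weaker share was 0.261%. With offsets fitted in each distance class the same classes gave 1.29% and 1.24% at 100 kb, and 0.325% and 0.444% between 1 and 1.5 Mb. The direction at 100 kb stayed the same but nearly levelled, and the excess of weaker pairs between 1 and 1.5 Mb shrank.

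**Figure D2:**
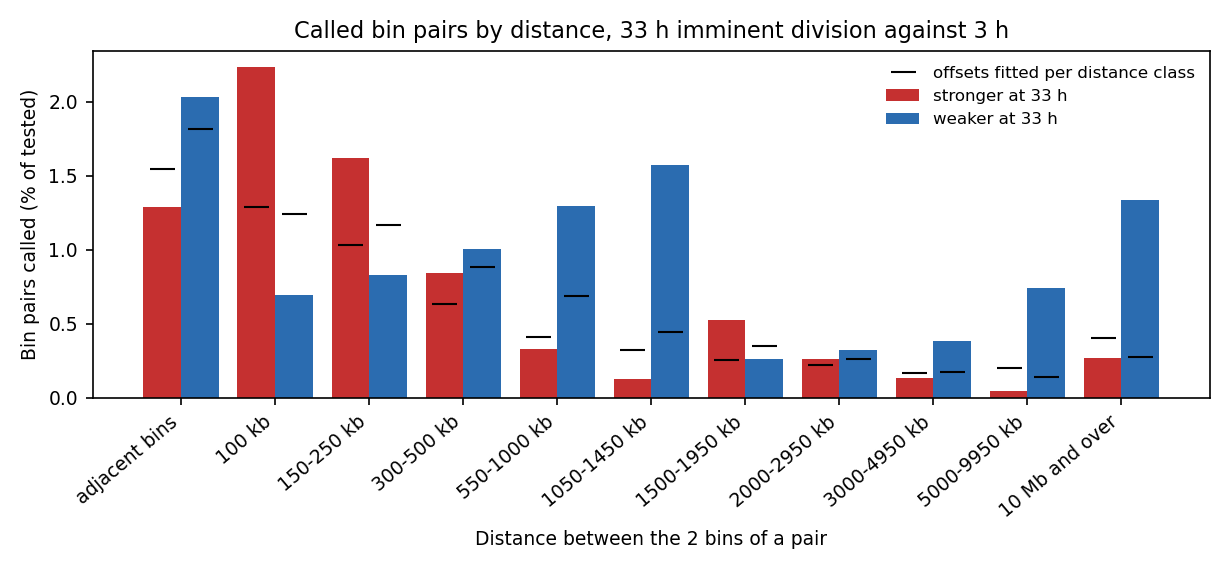
Bin pairs called stronger (red) or weaker (blue) at 33 h than at 3 h, as % of the pairs tested, by distance between the 2 bins; black marks give the same shares with offsets fitted per distance class. Stronger pairs peak at 100 kb, at 2.23%, and the bars step at 1500 kb while the marks do not.

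Bins end at MboI sites, and the letters there place the leading pairs in the genome. Gene names in the labels below place the bin, not the site itself. A site labelled at the start of a gene is the edge of the bin in which that gene starts. The 24 bases around the site at the start of each anchor are printed for the 2 leading strengthened pairs and the 2 leading weakened pairs described next, read from the RefSeq copy of GRCm38 (mm10) on the plus strand, with the recognition site GATC in capitals.
Strengthened, near Nkx1-1, chr5:33399788-33399811: tgtgattcaaGATCactccaggaa
Strengthened, its other anchor, chr5:33550054-33550077: atggccctaaGATCcatcttcatt
Strengthened, beside Ercc6l2, chr13:63700292-63700315: gagggcatcaGATCcttttacaga
Strengthened, at the start of Ercc6l2, chr13:63799812-63799835: atgacaatgaGATCaagtttacag
Weakened, in Ptprj, chr2:90449851-90449874: gattaacttgGATCtgggaaaaca
Weakened, at the start of Madd, chr2:91150126-91150149: atgggcattgGATCtcctggaact
Weakened, next to the bin of Utp18, chr11:93800157-93800180: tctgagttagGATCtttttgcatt
Weakened, its other anchor, chr11:94150090-94150113: tacacttttgGATCatggcagccc

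The strengthened pair of smallest p (pair 1) joined the bin at chr5:33399798-33450037, where the homeobox gene Nkx1-1 starts and Uvssa lies in part, with the bin at chr5:33550064-33600253, in which no protein-coding gene lies. Its normalised counts were 63.1 and 84.0 at 3 h, 139 and 113 at 10 h, and 198 and 191 at 33 h. The 3 groups did not overlap, and the contact was 2.53-fold stronger at 33 h than at 3 h (adjusted p 5.41e-14). Pair 2 joined chr13:63700302-63749878 to chr13:63799822-63849967, where Ercc6l2, a helicase-like gene linked to DNA repair, starts. It counted 115 and 108 at 3 h, 154 and 155 at 10 h, and 234 and 255 at 33 h, again with no overlap, a 2.21-fold change (adjusted p 8.15e-14) whose log2 size of 1.15 was 0.63 with bin coverage in the offsets. Pair 3 joined the start of Il6, a cytokine gene (chr5:29999574-30049771), to Dnajb6, which encodes a co-chaperone (chr5:29750333-29800156). Its counts were 72.8 and 93.9, then 155 and 119, then 206 and 188, a 2.27-fold change (adjusted p 2.23e-11), and by 10 h it had covered 0.573 of the distance on the log2 scale.

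Pair 4 joined neighbouring chitinase and chitinase-like genes, Chia1 and Chil3 at chr3:106100287-106150129 and Chil4 at chr3:106200056-106250291. Its counts of 220 and 233 at 3 h, 253 and 249 at 10 h, and 432 and 372 at 33 h put 10 h close to 3 h (0.179 of the way). The change was 1.75-fold (adjusted p 4.43e-11), but with the coverage of each bin in the offsets the log2 change was 0.06 (adjusted p 0.826). Pair 5 was unlike the others in span: 14200 kb separated chr11:87399944-87449980, where Rad51c (homologous recombination) and Tex14 start, from chr11:101599884-101650008, where Rdm1 starts. It counted 13.4 and 14.7 at 3 h, 37.5 and 21.2 at 10 h, and 73.4 and 66.8 at 33 h, a 4.87-fold change (adjusted p 6.16e-11). Pair 6 joined a bin overlapped by Nrd1 and Osbpl9 (chr4:109050142-109099400) to a bin inside Osbpl9 (chr4:109150154-109199986), and its counts were 201 and 188, then 238 and 239, then 335 and 323. The 1.70-fold change (adjusted p 1.12e-08) had an adjusted p of 0.0702 with DESeq2.

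Among weakened contacts the smallest p belonged to pair 7, between Ptprj, a receptor tyrosine phosphatase gene (chr2:90449861-90500057), and the start of Madd beside Nr1h3 (chr2:91150136-91199810). Normalised counts were 60.9 and 62.4 at 3 h, 42.8 and 50.8 at 10 h, and 12.1 and 14.1 at 33 h. The contact fell 4.67-fold (adjusted p 2.23e-11), and most of the fall came after 10 h. Pair 8 joined chr11:93800167-93849998 to chr11:94150100-94199905, with no protein-coding gene in either bin. It counted 45.7 and 46.8, then 33.6 and 27.4, then 8.12 and 5.93, a 6.59-fold fall (adjusted p 3.63e-11) and the largest fold among these 6. Pair 9 was a short contact, from chr13:24500246-24550052 to Ripor2 at chr13:24599935-24649730. Its counts ran from 412 and 388 through 375 and 341 to 220 and 239, a 1.73-fold fall (adjusted p 4.43e-11). Its log2 change of -0.79 was -0.37 with bin coverage and -1.22 with TMM factors.

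Pair 10 joined Cep350, a centrosome gene (chr1:155849955-155899939), to the start of Angptl1 inside Ralgps2 (chr1:156799846-156849999). Counts were 57.9 and 48.3 at 3 h, 43.2 and 28.3 at 10 h, and 12 and 11.3 at 33 h, a 4.41-fold fall (adjusted p 5.07e-09). Pair 11, between Trim37 and Ppm1e at chr11:87199979-87250194 and Tex14 at chr11:87500461-87550156, counted 216 and 200, then 139 and 157, then 106 and 107. It fell 1.93-fold (adjusted p 6.87e-09) and was the weakened pair that had gone furthest by 10 h, 0.512 of the way. Pair 12 joined the start of Olfml2b (chr1:170599943-170650454) to Atf6, a sensor of endoplasmic reticulum stress (chr1:170801705-170850092), with counts of 179 and 184, then 157 in both libraries, then 93.2 and 88.7. The fall was 2.00-fold (adjusted p 7.38e-09).

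All 12 leading pairs were chosen for not overlapping between 3 h and 33 h, so that is no finding. The 10 h libraries entered the choice only through the filter, the offsets and the spread shared by all libraries, not through the contrast. In all 12, both 10 h libraries lay strictly between the 3 h range and the 33 h range. The 10 h position ran from 0.179 (pair 4) to 0.573 (pair 3) of the way, and 9 of 12 lay nearer to 3 h. Tested step by step, none of the 12 passed between 3 h and 10 h (adjusted p 0.225 to 0.928), where 0.000617% of all tested pairs passed, and all 12 passed between 10 h and 33 h (adjusted p 4e-08 to 0.0204), where 2.03% passed. The 2 steps share the 10 h libraries, and each shares libraries with the comparison that chose the 12, so their values are given side by side only. Each of the 12 kept its direction and its call with any 1 of the 4 libraries left out.

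**Figure D3:**
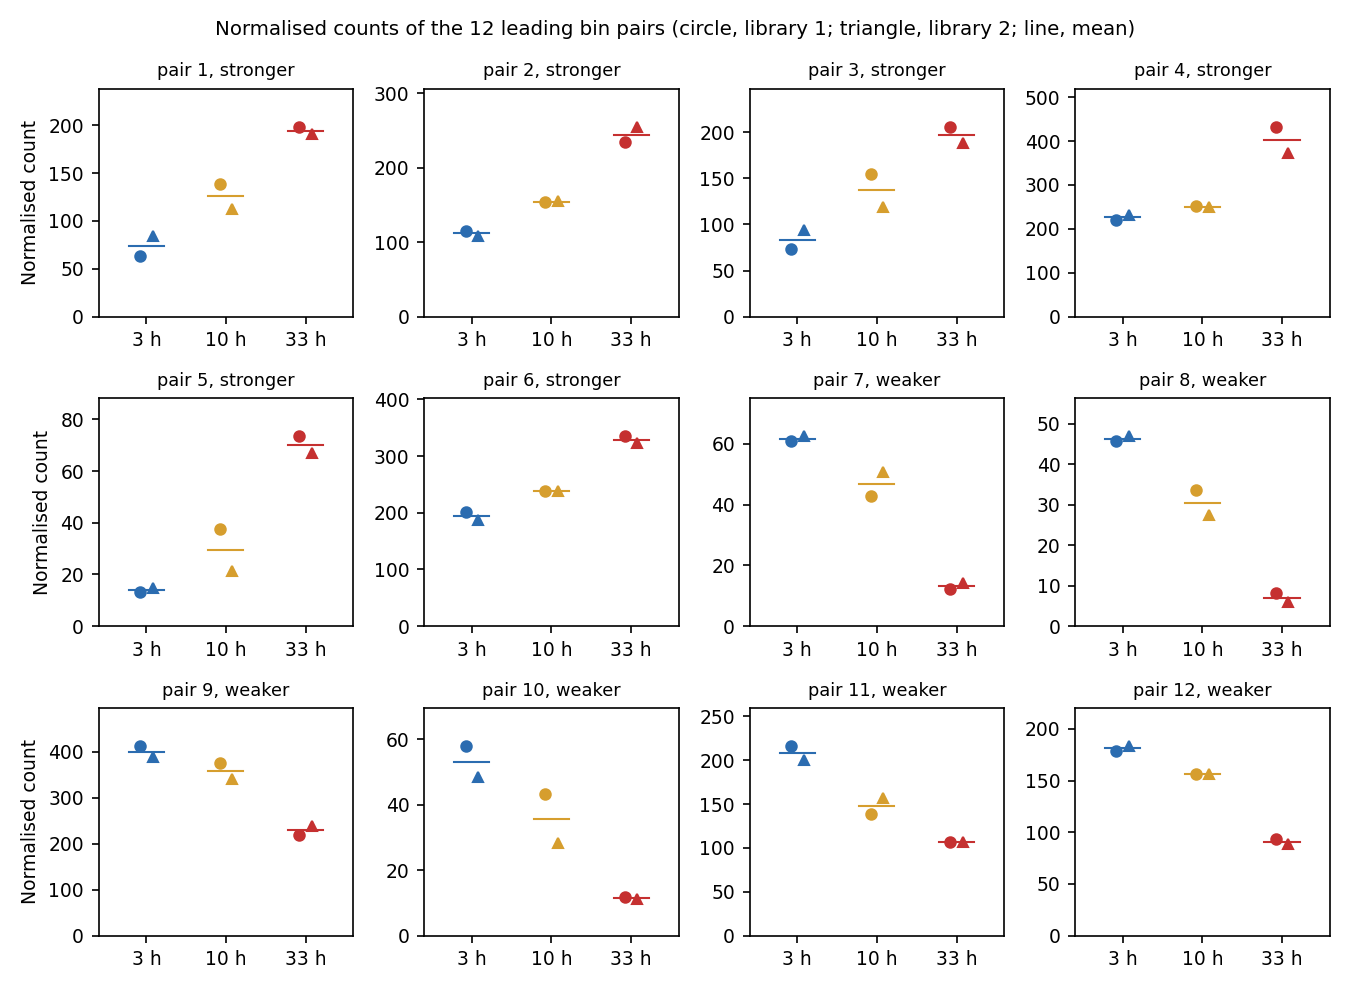
Normalised counts (linear axis from 0, read pairs scaled to the mean library) of the 6 strengthened and 6 weakened bin pairs of smallest p, per library at 3 h, 10 h and 33 h imminent division; lines are means of 2. In every panel both 10 h points lie between the 3 h points and the 33 h points.

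The same reading was made over the most changed bin pairs as a whole. Among the 1000 weakened pairs of smallest p, both 10 h libraries lay between the ends in 583, both lay at or beyond the 3 h range in 167 and 1 pair had both at or beyond the 33 h range, with the other 249 mixed. Among the 1000 strengthened pairs of smallest p the counts were 633, 110, 5 and 252. Over all bin pairs tested, both 10 h libraries lay between the ends in 4.43%, and in 9.82% of those whose ends did not overlap. The median 10 h position was 0.250 for weakened pairs (89.1% nearer to 3 h) and 0.396 for strengthened pairs (64.8% nearer to 3 h). These ends had been selected to be far apart, which by itself leaves more room between them. Where pairs were instead chosen on the libraries numbered 1 and the ends read in those numbered 2, both 10 h libraries lay between in 28.4% of 1000 weakened and 30.5% of 1000 strengthened pairs, beside 16.2% of all tested pairs, and the median positions were 0.028 and 0.243. Of these pairs 95.8% of the weakened and 76.6% of the strengthened kept their direction in the libraries numbered 2. Those that did not could not count as between, and they remain in the medians. All tested pairs were instead read each in its own direction, so the 16.2% follows a different rule. The median 10 h position was nearer to 3 h than to 33 h in both readings, while the share between the ends was lower in the second.

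The position of 10 h varied with span among strengthened DIs. Of all strengthened DIs, those under 500 kb stood at a median 0.385 of the way by 10 h, those of 500 kb to 1.5 Mb at 0.598 and those of 1.5 Mb and over at 0.545. Weakened DIs stood at 0.274, 0.252 and 0.332 in the same classes. These medians are over pairs that share bins and were not tested. They rest on the main offsets, with a separate fit from 1.5 Mb, and were not read with offsets per distance class. The share called by distance did depend on that choice, as given above.

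**Figure D4:**
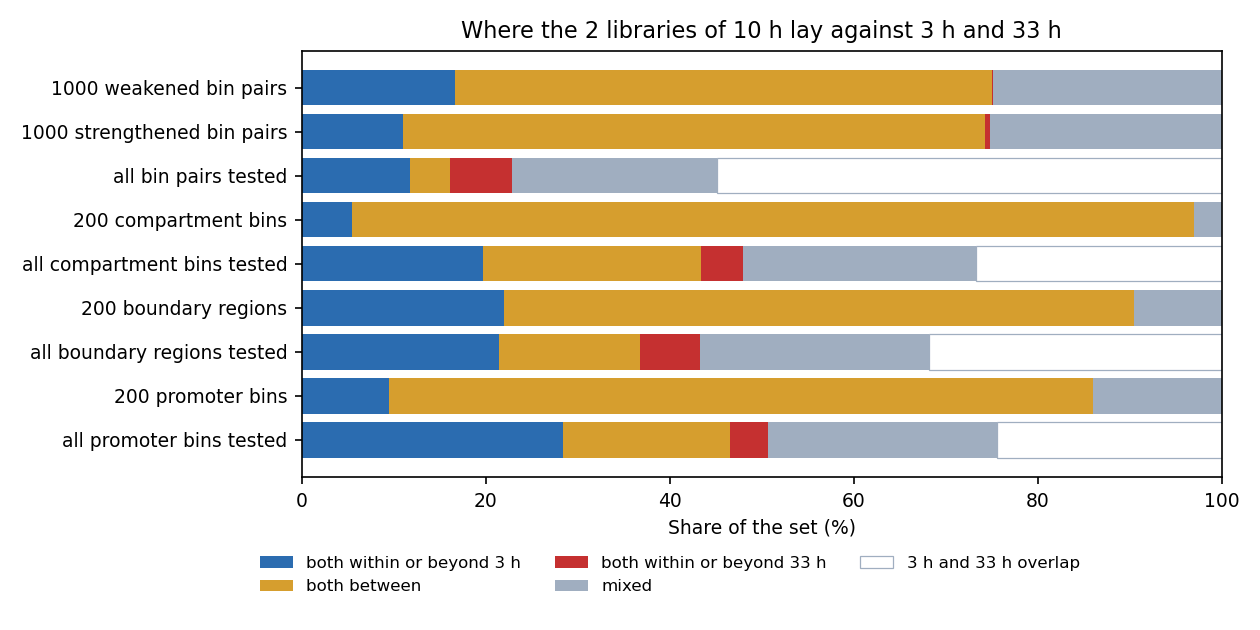
Share of each set (%) by where both 10 h libraries lay against the 3 h and 33 h ranges, for the most changed features and for all features tested of the same kind. Both lay between in 58.3% of 1000 weakened and 63.3% of 1000 strengthened bin pairs, 91.5% of 200 compartment bins, 68.5% of 200 boundary regions and 76.5% of 200 promoter bins.

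Several DIs gathered at the same places. The loci in this and the next paragraph were picked after their values had been seen, and pairs within a locus share anchors. Most were among the 100 kb bins with most DIs or the features named above, but Bach2 was not. On chromosome 13, the stretch chr13:63500867-64100044 holds Ptch1 (a Hedgehog receptor), Ercc6l2 and Hsd17b3 (testosterone synthesis), and 57 of its 425 tested pairs were stronger at 33 h (13.4%) and 5 weaker. Both 10 h libraries lay between the ends in 45 of these 62 DIs, at a median position of 0.426. For comparison, 0.595% of all tested pairs were stronger and 1.00% weaker. Over all strengthened DIs both 10 h libraries lay between in 48.1%, at a median position of 0.453. Around Il6 (chr5:29949809-30100308), 20 of 106 tested pairs were stronger and none weaker, and 10 h lay between in 18 of the 20. Around Slc39a8, a zinc transporter gene (chr3:135750160-136000053), 46 of 435 were stronger and 1 weaker, with 10 h between in 24 of 47 and at 0.560 of the way by median.

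Weakened DIs were read in the same way around regulators of B cells and of growth. Over all tested pairs 1.00% were weaker and 0.595% stronger. Over all weakened DIs both 10 h libraries lay between the ends in 40.1% and at or beyond the 3 h range in 20.8%, at a median position of 0.267. At Myc, the growth-promoting transcription factor, and in the stretch beside it (chr15:61899878-62299790), 124 of 665 tested pairs were weaker (18.6%) and none stronger. Both 10 h libraries lay between the ends in 73 of the 124. The leading contact of the Myc bin itself, with chr15:61500342-61549938, 450 kb away, counted 163 and 153 at 3 h, 105 and 118 at 10 h, and 70.6 and 83.4 at 33 h (adjusted p 8.35e-08). At Pax5, the factor that maintains B cell identity (chr4:44500141-44749970), 56 of 255 were weaker and 2 stronger. There both 10 h libraries were at or beyond the 3 h range in 38 of the 58 DIs and between in 7. The leading contact of the Pax5 promoter bin, with the gene body 150 kb away, counted 111 and 118 at 3 h, 113 and 118 at 10 h, and 63.9 and 66.3 at 33 h (adjusted p 0.000301), so that 3 h and 10 h overlapped. At Ebf1, a factor of B cell commitment (chr11:44599994-44999982), 57 of 346 were weaker, with 10 h between in 22 and at 3 h in 18. At Bach2, which restrains antibody secretion (chr4:32199932-32599869), 43 of 289 were weaker and 1 stronger, and 10 h stood at a median 0.504 of the way. At Jarid2, a partner of Polycomb repressive complexes (chr13:44599947-44900261), 71 of 328 were weaker, at a median 0.153 of the way. Whether the position of 10 h differs between these loci was not tested. The B cell regulators Bcl6 and Irf4 were not picked. At the promoter bin of Bcl6 3 of 71 pairs were weaker and 1 stronger, and at that of Irf4 1 of 82 was weaker and none stronger. These 2 counts are over a single 50 kb bin, so they are not like the counts over stretches above. Over single promoter bins, 2 of 42 pairs were weaker at Bach2 and 4 of 50 at Pax5, with 1 stronger at each. Ebf1 had 6 of 50 weaker, Jarid2 15 of 53 and Myc 12 of 88, with none stronger.

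Compartments were read as a component per 100 kb bin, positive in A and negative in B. Of 23691 bins tested with limma, the component was higher at 33 h in 5007 (21.1% of those tested) and lower in 4806 (20.3% of those tested), and 7165 bins in all changed without the second 33 h library, against 9813 with it. Most changes were small, with a median size of 0.153 and only 135 over 0.5. A change of sign in every library was rare: 164 bins moved into A and 350 moved into B, together 2.17% of bins, and 161 and 340 of them passed the test. The share of bins in A was 47.5% at 3 h, 47.2% at 10 h and 46.4% at 33 h. Most of the switched bins had not switched by 10 h. Of the 164, both 10 h libraries were still B in 102 and already A in 38, and of the 350, both were still A in 233 and already B in 69. In 250 kb bins, of which there are fewer to test, 6367 changed. Of these only 35.4% were lower, against 49.0% here.

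The largest switch into A was at chr11:20899323-21000439, where no protein-coding gene lies: its component was -0.238 and -0.201 at 3 h, -0.0753 and -0.0713 at 10 h, and 0.498 and 0.586 at 33 h (difference 0.762 ± 0.0310, SE, adjusted p 1.62e-06). Next came a bin inside Rasgrf2, a Ras activator gene (chr13:91900419-91996644), at -0.349 and -0.293, then -0.277 and -0.164, then 0.431 and 0.352. Both were still on the B side at 10 h. The other 3 were a gene-free bin at chr9:122500083-122599914, Arsb, a lysosomal sulfatase gene (chr13:93899936-93999042), and the start of Klf12, a transcriptional repressor (chr14:100200138-100299989), with differences of 0.686, 0.643 and 0.612. At Arsb both 10 h libraries were already positive (0.161 and 0.138), and at Klf12 both were still negative (-0.318 and -0.298).

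The largest switch into B was at chr10:38100033-38199780, also without a protein-coding gene, at 0.367 and 0.422, then 0.232 and 0.304, then -0.429 and -0.496 (difference -0.857 ± 0.0355, SE, adjusted p 1.62e-06). The bin at chr5:62499996-62599957 had gone further by 10 h, from 0.161 and 0.0751 through -0.198 and -0.177 to -0.526 and -0.547. The other 3 lay at chr11:48699396-48799730, at the starts of Pot1b (telomere binding) and Adgre4 (chr17:55700512-55800033) and in Tsn (chr1:118200026-118299787), with differences of -0.641, -0.631 and -0.629. Of these 10 bins, 9 had both 10 h libraries between the ends and the Pot1b bin had 1 of 2. Among the 200 bins of smallest p both 10 h libraries lay between in 183 (91.5%), against 23.7% of all bins tested and 32.4% of those whose ends did not overlap, at a median 0.261 of the way. As with bin pairs, these ends were selected to be far apart, which leaves more room between them. No choice on separate libraries was made for compartment bins, nor for the boundary regions and promoter bins below. The strength of compartments over the genome was the ratio of distance-corrected contacts among the most A-like and among the most B-like bins to those between both kinds. It did not have both 10 h libraries between the ends. The ratio was 21.98 and 23.5 at 3 h, 24.5 and 23.2 at 10 h, and 16.6 and 17.2 at 33 h, so that 3 h and 10 h overlapped.

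Boundaries were read as the log2 ratio of upstream to downstream contacts within 1 Mb of each 100 kb region: a ratio far from 0 marks a region that faces 1 side, as at the edge of a TAD. Of 22447 regions tested, the ratio moved away from 0 in 1507 (6.71% of those tested, stronger) and towards 0 in 3310 (14.7% of those tested, weaker), so that 68.7% of changed regions were weaker at 33 h. Without the second 33 h library 4513 regions changed, against 4817 with it. The weakened region of smallest p, chr11:93800167-93899867, holds the starts of Utp18 (ribosome assembly) and Mbtd1 and contains an anchor of pair 8, so both readings share read pairs. Its ratio was -1.77 and -1.84 at 3 h, -1.66 and -1.57 at 10 h, and -0.36 and -0.40 at 33 h (adjusted p 8.06e-33). The region at the starts of Tomm20 (mitochondrial import) and Rbm34 (chr8:126900043-126999933) went from 2.97 and 2.98 through 2.91 in both libraries to 1.63 and 1.82 (adjusted p 6.11e-32). In both, almost all of the change fell after 10 h, at positions of 0.135 and 0.051. The other 2 were Ecpas (chr4:58799838-58900081) and Kif6 with Rftn1 (chr17:49900146-49999846), at positions of 0.276 and 0.224.

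The strengthened region of smallest p lay in Nnt, a mitochondrial enzyme gene (chr13:119300531-119400192). Its ratio of -0.26 and -0.13 at 3 h and -0.02 and -0.0045 at 10 h became 1.03 and 1.15 at 33 h (adjusted p 1.37e-26). At G3bp1, a stress granule gene, and Glra1 (chr11:55499682-55600342) the ratio crossed from 0.33 and 0.31 through 0.10 and 0.16 to -0.68 and -0.69. The regions at Slc39a8 (chr3:135799840-135899238) and Ptch1 (chr13:63500867-63600686) belong to the loci above. At Slc39a8 the ratio was 0.02 and 0.12, then -0.43 and -0.40, then -0.70 and -0.72, and this region had gone furthest of the 8 by 10 h, 0.626 of the way. Among the 200 regions of smallest p both 10 h libraries lay between the ends in 137 (68.5%) and at or beyond 3 h in 44, against 15.3% and 21.4% of all regions tested, with 22.5% between among those whose ends did not overlap.

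Promoter interactivity was a sum of contact counts per 50 kb bin with a protein-coding gene start. Only contacts whose abundance, pooled over all libraries, lay well above a curve for their distance were summed. This is called the distance filter here, and deeper libraries weighed more in the pool. Of 12462 promoter bins tested, 3404 were more interactive at 33 h (27.3% of those tested) and 3332 less (26.7% of those tested), and without the second 33 h library 5876 changed in all, against 6736. Changes were small, with 81 of the 6736 over 1.5-fold, 61 of them upwards. Promoter bins in B were less interactive in 35.7% of cases and more in 25.4%, and those in A in 24.5% and 27.8%. Because the counts are sums over a bin, several genes can share 1 value, and copies of gene families can share reads.

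The 6 promoter bins of smallest p upwards included Hsd17b3, Ptch1 and Ercc6l2 from the chromosome 13 locus. Hsd17b3 counted 812 and 887 at 3 h, 987 and 994 at 10 h, and 1457 and 1487 at 33 h (1.72-fold, adjusted p 4.59e-15). Ptch1 counted 783 and 840, then 1028 and 933, then 1415 and 1407 (1.72-fold, adjusted p 6.54e-15), and it was the only 1 of these 12 bins to pass between 3 h and 10 h (adjusted p 0.0248), where 0.393% of all promoter bins passed; between 10 h and 33 h all 12 passed, as did 51.9% of all promoter bins. Nr2f1, an orphan nuclear receptor, rose 1.58-fold, and Klri1 and Klri2, killer cell lectin receptors in 1 bin, rose 1.59-fold. Macc1 stood still until 10 h, with 332 and 333 at 3 h and 317 and 333 at 10 h, and then counted 631 and 595 at 33 h (1.84-fold, adjusted p 7.29e-13).

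The 6 bins of smallest p downwards were Cacng4 and its neighbour Cacng1 (calcium channel subunits), Nlrp1b (an inflammasome sensor), Pde1b with Ppp1r1a, Thy1 (a T cell surface protein) and Wscd1. Cacng4 counted 1872 and 1818 at 3 h, 1673 and 1749 at 10 h, and 1065 and 1164 at 33 h (1.65-fold lower, adjusted p 4.59e-15). Nlrp1b counted 1397 and 1218, then 1112 and 1162, then 721 and 737 (1.76-fold lower, adjusted p 1.92e-14). Thy1 counted 1975 and 1910, then 1850 and 1769, then 1209 and 1299 (1.54-fold lower, adjusted p 3.99e-14). In 10 of the 12 bins both 10 h libraries lay between the ends, the exceptions being Macc1 and the Klri bin, and no position was past 0.341. The sizes rest on the distance filter: without it the log2 changes of the 6 upward bins, 0.56 to 0.88 here, were 0.10 (Macc1) to 0.26, with 0.17 for Hsd17b3 and 0.22 for Ptch1. Those of the 6 downward bins, -0.57 to -0.82, were then -0.19 (Thy1) to -0.41, and all 12 kept their direction and call. Among the 200 promoter bins of smallest p all 200 were nearer to 3 h at 10 h, both 10 h libraries lay between in 153 (76.5%, against 18.2% of all promoter bins and 24.0% of those whose ends did not overlap), and the median position was 0.182.

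Genes of the pathways that act over the first cycle were read from lists, each beside the shares over all promoter bins (27.3% more, 26.7% less, median log2 change 0.00). The MHC class II list, genes of antigen presentation to T cells with 8 of its 10 genes in 1 cluster on chromosome 17, had few bins near no change: 7 of its 8 bins were less interactive and none more, with a median log2 change of -0.27, and under each alternative setting 6 to 8 were less and none more. The bin of H2-Ab1 and H2-Aa counted 1884 and 1801 at 3 h, 1854 and 1825 at 10 h, and 1427 and 1399 at 33 h (adjusted p 1.36e-09), so 10 h had not left the 3 h range. H2-DMb1 (-0.32) and H2-Eb1 (-0.32, both log2 change) fell as well, and neighbouring bins of the cluster share contacts. Of bin pairs that touch these bins, 36 of 353 were weaker (10.2%) and 1 stronger, beside 1.40% and 0.709% of all pairs that touch a promoter bin.

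B cell identity genes were less interactive in 13 of 24 bins and more in 3. Blk, a kinase of B cell receptor signalling, counted 2459 and 2334 at 3 h, 2362 and 2298 at 10 h, and 1724 and 1800 at 33 h (log2 change -0.44, adjusted p 2.42e-11). Cd22 (-0.22), Cd79a (-0.24) and Ebf1 (-0.20, log2 change) fell too. This split depended on the settings: without the distance filter on contacts 5 were less and 6 more, 7 and 4 with offsets that included bin coverage, and 8 and 3 without the second 3 h library. Antibody secretion genes had 6 of 14 bins more and 3 less interactive, but 1 less without the first 3 h or the first 33 h library, 4 more with bin coverage, DESeq2 or the replicate block, and 7 more with none less without the distance filter. Prdm1, the regulator of plasma cell fate, counted 1916 and 2266 at 3 h, 2171 and 2094 at 10 h, and 2847 and 2739 at 33 h (log2 change 0.39, adjusted p 2.63e-09), and 5 of its 60 bin pairs were stronger and none weaker. Sdc1 (0.26) and Ell2 (0.29, log2 change) rose, while Hspa5, an endoplasmic reticulum chaperone, fell (-0.18).

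Cell cycle lists had bins called in both directions, to be read against the shares over all promoter bins given above. In the G1 and S entry list 5 of 18 bins were less and 3 more interactive, with Cdk2 (-0.21), Ccnd3 (-0.20), Cdkn2c (0.21) and Rb1 (0.16) leading by p. In the DNA replication list 6 of 28 were more and 6 less, led by Tyms (0.32, beside Il6), Mcm7 (-0.33), Mcm10 (0.31) and Pold1 (-0.21). The Pold1 bin also holds the start of Spib, so the same value counts in the B cell identity list. In the mitosis list 7 of 21 were more and 6 less: Bub1, a spindle checkpoint kinase, counted 1445 and 1530 at 3 h, 1538 and 1628 at 10 h, and 2083 and 1984 at 33 h (adjusted p 8.71e-11), and Cdc20, which starts anaphase, counted 2438 and 2345, then 2279 and 2284, then 1758 and 1747 (adjusted p 1.06e-11). Genes of chromosome structure were more interactive in 6 and less in 8 of 21, with Pds5a (0.26) and Ctcf (-0.23) in opposite directions. Replication-dependent histone genes, 54 genes in 11 bins, were less interactive in 7 bins and more in none, but in 2 without the second 3 h library and in 1 without the second 33 h library. Single libraries also moved the mitosis list, to 3 more without the first 3 h or the first 33 h library and to 3 less without the second 3 h library, and left 3 less in the DNA replication list and in the G1 and S entry list when the first 3 h library was left out. The G1 and S entry list also had 3 less when the first 33 h library was left out. Without the distance filter the balance turned in the G1 and S entry list (6 more, 1 less) and in chromosome structure (8 more, 3 less), and the mitosis list had 8 more and 2 less.

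Signalling genes were as mixed. Toll-like receptor signalling had 6 of 15 bins less and 2 more, with the adaptor Myd88 at -0.31 (1611 and 1477 at 3 h, 1414 and 1356 at 10 h, 1250 and 1224 at 33 h) and the LPS receptor Tlr4, in B, at 0.26. NF-kappaB genes had 4 of 12 less and 2 more, led by Nfkbiz (0.31), immediate early factors 7 of 18 less and 3 more, led by Ier3 (-0.25), and homing and quiescence genes 5 of 16 less and 3 more, led by Ccr6 (-0.25). Among activation surface and cytokine genes, 3 of 18 bins were more and 3 less. Il6 had the smallest p of that list, with 1292 and 1373 at 3 h, 1465 and 1480 at 10 h, and 1990 and 1886 at 33 h (log2 change 0.53, adjusted p 3e-12), and the bin of Tnf and Lta was less interactive (-0.25). Here 5 bins were less interactive when the first 3 h library was left out, and without the distance filter 9 were more and 1 less. Without the distance filter Toll-like receptor signalling had 5 more and 3 less, NF-kappaB 5 and 1, immediate early factors 4 and 3, and homing and quiescence 7 and 2, so none of these balances held. No immediate early bin was more interactive without the first 3 h library, and no homing and quiescence bin without the second 33 h library. Leaving out single libraries brought the other counts of these 4 lists to between 1 and 3 more and between 2 and 7 less. Glycolysis genes had 4 of 15 less and 1 more, and ribosome-making genes 3 of 17 more and 1 less. With bin coverage in the offsets glycolysis had 5 less and 1 more, and ribosome making 5 more and 4 less. The counts of both lists also moved when single libraries were left out. Among markers of other cell types, 5 of 15 T and NK bins were more and 5 less interactive, and 4 of 13 myeloid and erythroid bins more and 3 less. Without the second 3 h library these were 2 more and 4 less in each list.

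**Figure D5:**
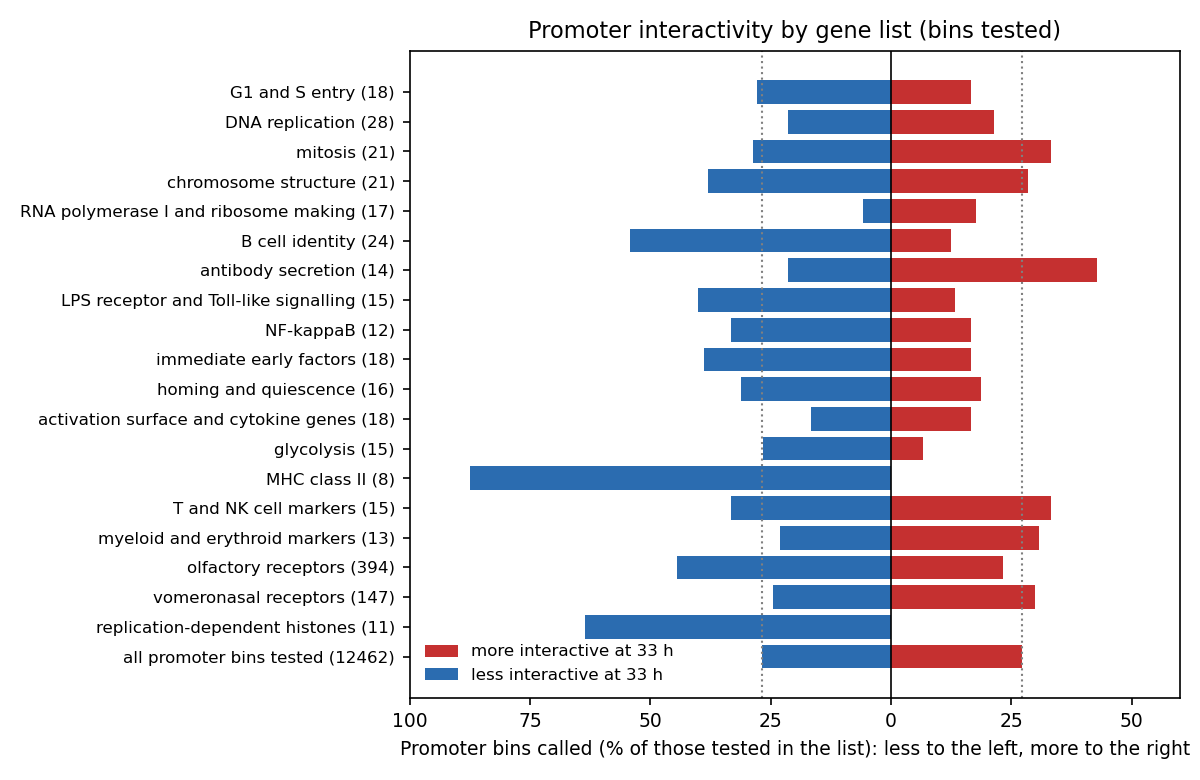
Promoter bins called less (left, blue) or more (right, red) interactive at 33 h than at 3 h, as % of the bins tested in each gene list, with the number of bins in brackets; dotted lines mark all promoter bins tested, 26.7% less and 27.3% more. MHC class II reaches 87.5% less and 0% more, over 8 bins.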

How the data were processed

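The authors deposited, per library, raw read-pair counts for pairs of 50 kb bins, as a symmetric matrix without coordinates; per their methods, reads were aligned to mm10 with diffHic, and duplicates and dangling ends were removed. Bins were rebuilt from MboI fragments of GRCm38 (53357 bins over 66 sequences, the matrix size), and 756 of 48088 autosomal bins with undetermined sequence or extreme coverage were left out. The excluded-region list of the study was not used here. Genes came from GENCODE M21.

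Bin pairs with a summed count of at least 10 and abundance over 4-fold the interchromosomal background were tested with edgeR 4.0.16 (R 4.3.3), loess offsets (under and over 1.5 Mb apart separately) and a quasi-likelihood fit over all 8 libraries in a one-way layout, at a Benjamini-Hochberg false discovery rate of 5%, which every adjusted p uses. Normalised counts are scaled to the mean library. Boundary ratios used edgeR glmTreat (over 1.1-fold), with promoter sums (above a distance curve, at least 200 counts) tested in edgeR without a trend, and compartment components (100 kb, oriented by gene starts) in limma 3.58.1. DESeq2 1.42.0 was an alternative. The edgeR and limma fits were also run on simulated data with independent features, a fixed spread and, for bin pairs, a single offset fit. That setting is simpler than the data, so it does not vouch for the calls here.

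The libraries, gene lists and rules were chosen with earlier results of these data known. Named features were the 6 bin pairs of smallest p in each direction with non-overlapping ends, the 5 largest compartment switches, 4 boundary regions and 6 promoter bins per direction, and up to 4 genes of each list by p (in lists without a direction, fewer). Position is the place of the 10 h mean between the 3 h mean (0) and the 33 h mean (1), on the log2 scale for counts (0.5 added). Totals of 88703088 to 218945191 read pairs set the precision. Reads without molecular identifiers are not independent molecules.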

Additional observations from a re-analysis of the deposited data

Results flagged for a closer look

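The share of read ends on chromosome X was 3.74% in the second 33 h imminent division library, a signal on a chromosome that the comparisons did not use, against 2.39% to 2.84% in the other 7 libraries. Its share on Y was the lowest of the 8, at 0.0490%. The part of this in the autosomal results was not tested beyond leaving the library out. That also removes a replicate, so the lower counts of calls given above do not measure this part. Counts of changed bin pairs also fell when any other library of the comparison was left out. The change in long-range share was -6.24 points without the library, against -6.22 with it.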

How the results depend on the processing

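The 42 named bin pairs, compartment bins, boundary regions and promoter bins kept their direction in all 411 fits of another setting that gave an adjusted p, and their call in 409, the exceptions being pair 4 with bin coverage in the offsets and pair 6 with DESeq2. Sizes held less well, and several log2 changes moved by over 1.5 times. Without the distance filter all 12 promoter bins shrank by that much. Pairs 2, 4, 6 and 9 moved with bin coverage or TMM factors, and pairs 4, 6 and 9 also with DESeq2. Bin coverage took the promoter bin of Ercc6l2 from 0.56 to 0.27 and that of Thy1 from -0.62 to -0.36. With 500 kb in place of 1 Mb on each side, the boundary region at Ecpas went from 1.05 to 0.68. The 23320 changed bin pairs became 62404 with TMM factors, 45655 with bin coverage in the offsets, 9352 with abundance over 2-fold the background, 4416 with libraries thinned to the shallowest, 67233 in 100 kb bins, and 5768 to 10403 with 1 library left out, so the thinned libraries gave the lowest count. The 2-fold filter tested 7000612 pairs and the 100 kb bins 2478323, against 1458343 in the main fit, so those counts are not over like sets. Weaker pairs were the majority under each of these settings. The 4817 boundary regions became 9195 without a fold-change threshold and 3891 to 4513 with 1 library left out, the 9813 compartment bins became 6367 at 250 kb and 6867 to 9886 with 1 left out, and the 6736 promoter bins 5574 to 5876. At 250 kb there are fewer compartment bins to test, so 6367 does not by itself mean a smaller share called. The change in long-range share was -6.90 points at 3 Mb and -8.79 without the diagonal. The change in slope of -0.188 was -0.122 from 1 to 20 Mb and reversed to 0.0144 from 100 kb to 1 Mb; the cause was not tested. The share with both 10 h libraries between the ends, 58.3% for weakened pairs, was 65.0% in 100 pairs, 40.1% in all called, 28.4% when chosen on libraries numbered 1, 63.5% with bin coverage and 53.1% at 100 kb. For strengthened pairs, 63.3% became 77.0%, 48.1% and 30.5% under the same 3 choices. It was 98.0% in 50 and 49.5% in all changed compartment bins, and 44.9% in all changed boundary regions. Same-numbered libraries showed no shared deviation over single bin pairs (correlations -0.035 to 0.008), and the numbers were not taken as pairs. Counting noise in single bin pairs lowers such correlations, so this reading cannot exclude pairing. With the replicate block 19666 bin pairs, 9557 compartment bins, 4751 boundary regions and 6431 promoter bins were called.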

Other observations

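Sequence averages were taken over the anchors of changed contacts, which share bins, so no test was made. Anchors of weakened DIs held 45.4% GC and 11.2 CpG per kb on average, against 42.2% and 8.72 over all tested pairs and 41.9% and 8.63 in strengthened DIs. MboI fragments were nearly as dense in each, at 2.48 per kb in weakened, 2.46 in strengthened and 2.48 in all tested pairs, and soft-masked repeats covered 28.1% of the anchors of weakened DIs against 32.2% of both others. Among chromosomes, the share of tested pairs that were weaker ran from 0.603% on chromosome 3 to 1.59% on chromosome 17, and the share stronger from 0.404% on chromosome 4 to 0.815% on chromosome 16.

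Chemosensory receptor genes, which lie in large clusters and here mostly in B, are given by family. Of 394 olfactory receptor bins 175 were less interactive at 33 h and 92 more, and of 147 vomeronasal receptor bins 36 were less and 44 more, beside 35.7% less and 25.4% more of all promoter bins in B (26.7% and 27.3% of all promoter bins): the shares were 44.4% less and 23.4% more for olfactory and 24.5% less and 29.9% more for vomeronasal bins. Without the distance filter the olfactory bins turned to 118 less and 141 more of 565, and with bin coverage in the offsets the vomeronasal bins turned to 39 less and 34 more. These families hold near-identical copies whose reads may not be placed with certainty.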
